A study of Mus musculus with 6 samples.

Results

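The metabotropic glutamate receptors are the receptors for glutamate that act through G proteins instead of opening an ion channel. The genes Grm2, Grm3, Grm4, Grm5, Grm7 and Grm8 were followed here in the medial prefrontal cortex, a frontal brain area that takes part in learning and suppressing fear. Members were all probe sets that the array's annotation assigns to exactly 1 of these gene symbols. This gave 9 probe sets for 6 genes, out of 18193 genes named by single-gene probe sets on the array. A probe set is a group of short probes that together read 1 transcript region. Of the 9, 8 had a log2 value above 4 on at least 3 arrays and were tested, and 1 probe set of Grm7 did not and is given as values only. Another probe set that lists Grm2 together with a second gene was left out by the rule, and other genes of the family were not analysed here.

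Group I receptors, here mGlu5, couple to Gq proteins and phospholipase C, lie mostly beside the postsynaptic density and are bound there by Homer proteins. Group II receptors (mGlu2 and mGlu3) and group III receptors (mGlu4, mGlu7 and mGlu8) couple to Gi/o proteins, which lower cyclic AMP, open GIRK potassium channels and close calcium channels. Many of them sit on axon terminals, where they restrain further glutamate release. In the prefrontal cortex these receptors are known as regulators of synaptic strength and have been studied as targets for drugs against anxiety.

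Total RNA came from the tissue of both hemispheres of 6 male mice (inbred strain 129S1/SvImJ), 8 to 10 weeks old, taken 2 h after the mice had gone through fear extinction, a training that repeats a feared cue without its outcome. Of these, 3 were on the diet labelled Ctrl (mice 1, 5 and 9, called control) and 3 on the diet labelled ZnR and described as a zinc diet (mice 3, 7 and 11). The labels name no transgene and no drug, all mice had the extinction training, and the sources used here do not give what the ZnR diet held. Each mouse gave 1 Affymetrix Mouse430_2 array, and with so few arrays the precision of all values is limited. The comparison asks which receptor transcripts were higher or lower on the ZnR diet.

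Array medians lay between 4.46 and 4.52 log2 units. Signals of the array's 18S ribosomal RNA controls were low on the arrays of mouse 1 (control, mean 9.09) and mouse 3 (ZnR, mean 8.44) and ran from 10.9 to 12.4 elsewhere. This pair of arrays, called the low-18S arrays, holds 1 mouse of each diet, so differences are also given between mice 3 and 1 alone and among mice 5, 7, 9 and 11. The 6 measured markers of cortical glutamatergic neurons ran from 4.42 ± 0.09 for Emx1 to 11.22 ± 0.07 log2 units for Nrn1 in control mice (SD, n = 3).

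No metabotropic receptor probe set passed the test for a diet difference. Of the 8 tested, 0 had a limma adjusted p under 0.05, beside 1.47% of all 25381 probe sets tested, and 1 had an unadjusted p under 0.05, beside 17% of all. The largest difference was in Grm2, which was lower in ZnR mice by 0.69 log2 units with adjusted p = 0.11. On average 4 of the 8 probe sets were higher and 4 lower, with a median difference of -0.019 log2 units beside 0.015 over all probe sets tested. The mice of the diets did not overlap for 2 of the 8, beside 23.7% of all probe sets tested. Every mouse is a separate sample. The limma standard errors and p-values rest on each probe set's spread between mice, drawn toward a value shared by all probe sets tested. Levels of different probe sets are not set against each other below, since probes differ in brightness.

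**Figure D1:**
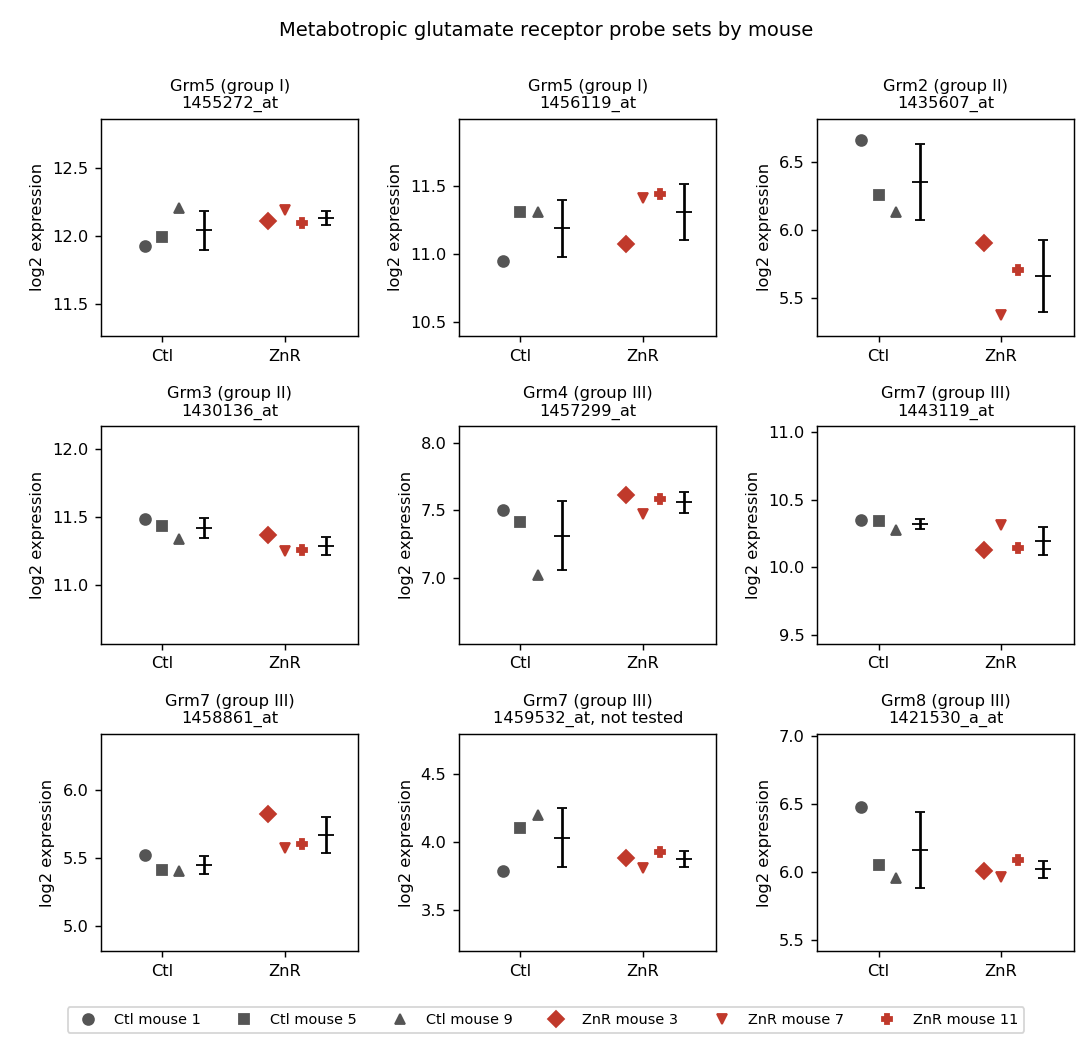
Log2 expression of the 9 receptor probe sets (1 panel each, with the same vertical span in every panel) in the 3 control and 3 ZnR mice; points are mice, and black bars are the mean ± SD of 3 mice. All control mice lie above all ZnR mice in the Grm2 panel (6.13 to 6.67 against 5.37 to 5.90), while most other panels show overlapping diets.

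Grm5 encodes mGlu5, the group I receptor that drives calcium release and endocannabinoid synthesis in the postsynaptic cell. Its first probe set (1455272_at) read 11.925, 11.997 and 12.204 log2 units in control mice 1, 5 and 9. In ZnR mice 3, 7 and 11 it read 12.110, 12.190 and 12.095. The ZnR values lay inside the span of the control values. The difference was 0.09 ± 0.10 log2 units (SE, n = 3 per diet, limma adjusted p = 0.702), with a 95% interval from -0.14 to 0.32, or from 0.907-fold to 1.25-fold.

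The second Grm5 probe set (1456119_at) read 10.95, 11.31 and 11.31 in control mice 1, 5 and 9, and 11.07, 11.41 and 11.44 in ZnR mice 3, 7 and 11. Control mouse 1 and ZnR mouse 3, the low-18S arrays, were the lowest of their diet. The difference was 0.12 ± 0.14 (SE, limma adjusted p = 0.723), 0.13 between mice 3 and 1 and 0.12 among mice 5, 7, 9 and 11. Without control mouse 1 it was 0.0012. The intervals of both probe sets reached no further than 0.46 upward and -0.21 downward.

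Grm2 encodes mGlu2, a group II autoreceptor that lowers release from glutamatergic terminals. Its single probe set (1435607_at) read 6.67, 6.25 and 6.13 log2 units in control mice 1, 5 and 9. In ZnR mice 3, 7 and 11 it read 5.90, 5.37 and 5.70. All 3 ZnR mice lay below all 3 control mice, with the lowest control 0.23 above the highest ZnR mouse. The means were 6.35 ± 0.28 and 5.66 ± 0.27 (SD, n = 3 per diet).

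The Grm2 difference was -0.69 ± 0.18 log2 units (SE), a level 1.62-fold lower in ZnR mice, with unadjusted p = 0.00533 and limma adjusted p = 0.11. Its unadjusted 95% interval ran from -1.11 to -0.27, or from 2.16-fold to 1.21-fold lower. Among all probe sets tested, 1.95% had a larger difference in size and 4.84% a smaller p. The difference was -0.76 between mice 3 and 1 and -0.66 among mice 5, 7, 9 and 11. With the low-18S arrays as a block the adjusted p was 0.0361, and with arrays weighted by their quality it was 0.0369, so the side of the threshold depended on these choices. Those fits called 2.17% and 7.89% of all probe sets. Leaving out 1 mouse at a time gave differences from -0.81 without ZnR mouse 3 to -0.53 without control mouse 1, with adjusted p from 0.126 to 0.233.

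**Figure D2:**
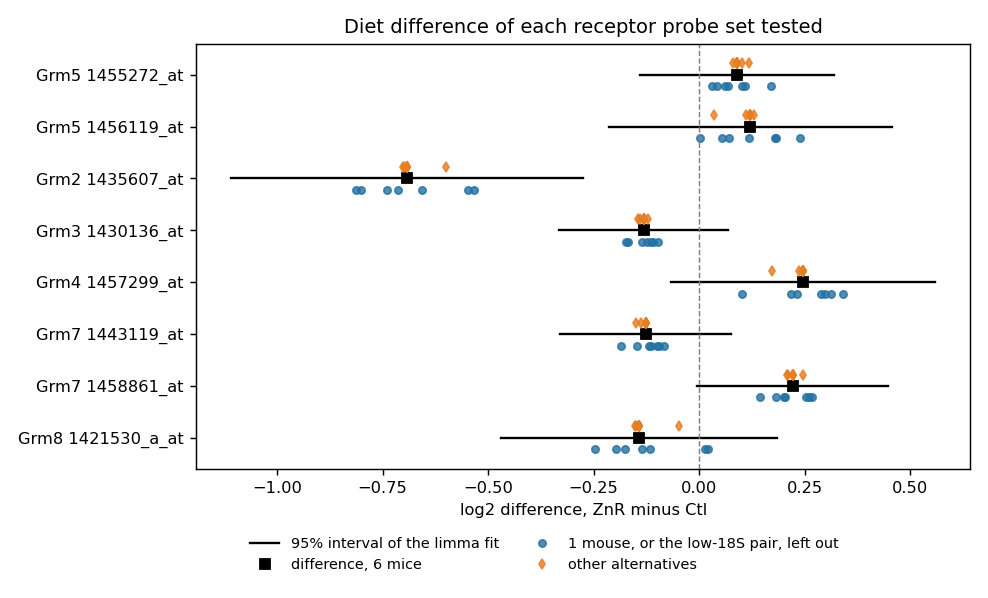
Log2 difference, ZnR minus control, of the 8 probe sets tested (squares), with its unadjusted 95% interval (lines), the values with 1 mouse or both low-18S arrays left out (circles) and those of the other alternatives (diamonds). The Grm2 interval (-1.11 to -0.27) is the only one of the 8 that leaves out 0, and Grm8 moves across 0 when mice are left out.

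Grm3 encodes mGlu3, the other group II receptor, which is made by neurons and astrocytes and is activated by the dipeptide NAAG. It read 11.49, 11.43 and 11.33 in control mice 1, 5 and 9 (1430136_at). In ZnR mice 3, 7 and 11 it read 11.36, 11.25 and 11.25. ZnR mouse 3 lay among the control mice, and the other ZnR mice lay below all controls. The difference was -0.13 ± 0.09 (SE, limma adjusted p = 0.497), -0.12 between mice 3 and 1 and -0.13 among mice 5, 7, 9 and 11. Its 95% interval, -0.33 to 0.07, bounds a fall at 1.26-fold. Whether the difference of Grm2 exceeded that of Grm3 was not tested.

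Grm4 encodes mGlu4, a group III presynaptic receptor best known from cerebellar granule cells and from inputs and outputs of the striatum. It read 7.50, 7.42 and 7.02 in control mice 1, 5 and 9 (1457299_at), and 7.62, 7.47 and 7.59 in ZnR mice 3, 7 and 11. Control mouse 9 was the lowest of the 6, and ZnR mouse 7 lay just under control mouse 1. The difference was 0.25 ± 0.13 (SE, limma adjusted p = 0.406), with a 95% interval from -0.07 to 0.56. Without control mouse 9 it was 0.10. Between mice 3 and 1 it was 0.12, and among mice 5, 7, 9 and 11 it was 0.31 (ZnR minus control).

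Grm7 encodes mGlu7, a group III receptor of the presynaptic active zone that needs high glutamate concentrations to be activated. Its brightest probe set (1443119_at) read 10.35, 10.34 and 10.28 in control mice 1, 5 and 9, and 10.13, 10.31 and 10.14 in ZnR mice 3, 7 and 11. ZnR mouse 7 lay among the controls and the other ZnR mice below them. The difference was -0.13 ± 0.09 (SE, limma adjusted p = 0.52), with a 95% interval from -0.33 to 0.08.

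The second Grm7 probe set (1458861_at) went the other way. It read 5.52, 5.41 and 5.40 in control mice 1, 5 and 9, and 5.82, 5.58 and 5.61 in ZnR mice 3, 7 and 11. All ZnR mice lay above all control mice, by a margin of 0.054 between the nearest mice. The difference was 0.22 ± 0.10 (SE, limma adjusted p = 0.305), with a 95% interval from -0.0056 to 0.45. The third probe set (1459532_at) was above 4 on 2 of 6 arrays, which is under the minimum for testing. It read 3.79, 4.11 and 4.20 in control mice 1, 5 and 9 and 3.89, 3.81 and 3.92 in ZnR mice 3, 7 and 11. The probe sets of Grm7 therefore gave no common direction, and neither tested one passed.

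Grm8 encodes mGlu8, a group III presynaptic receptor with a high affinity for glutamate. It read 6.48, 6.05 and 5.96 in control mice 1, 5 and 9 (1421530_a_at), and 6.01, 5.97 and 6.08 in ZnR mice 3, 7 and 11. Control mouse 1 stood above the other 5 mice, which all lay between 5.96 and 6.08. The difference was -0.14 ± 0.14 (SE, limma adjusted p = 0.666). It was -0.47 between mice 3 and 1 and 0.021 among mice 5, 7, 9 and 11, so its direction rested on that mouse.

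The genes through which these receptors signal were counted in lists, with each gene represented by its brightest tested probe set. Of 47 listed genes, 39 were measured, and 1 of them, Kcnj9, fell in ZnR mice while 0 rose. With a trended variance prior 4 fell and 2 rose, and with array weights 7 fell and 3 rose. Array weights called 7.89% of all probe sets, beside 1.47% in the standard fit without weights or trend. The share with the trended prior is not given here. In the standard fit, over all 11749 genes measured, 1.27% were called lower and 0.655% higher. The median difference over all genes was 0.029 log2 units, and 57.6% of them were higher on average in ZnR mice.

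In the Gi/o arm, which serves group II and III receptors, 1 of 14 measured genes fell and 13 did not pass. The list's median difference was -0.21, with 11 lower and 3 higher on average. The diets did not overlap for 9 of the 14, beside 27.7% of all genes. Adcy5 (0.41) and Gnai2 (0.22), both higher in ZnR mice, were among these 9. In the other pathway lists the diets did not overlap for 3 of 8 (Gq arm), 5 of 10 (receptor-binding proteins) and 2 of 7 genes (NAAG and glutamate transport). Kcnj9 encodes the GIRK3 subunit of the potassium channel that Gi/o-coupled receptors open. It read 8.94, 8.91 and 8.80 in control mice 1, 5 and 9, and 8.18, 8.38 and 8.28 in ZnR mice 3, 7 and 11. Every ZnR mouse lay below every control mouse. Kcnj9 was 1.52-fold lower (-0.60 ± 0.09 SE, limma adjusted p = 0.0316).

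Of the other tested Kcnj9 probe sets, 1 fell as well (-0.75 ± 0.13 SE, limma adjusted p = 0.0461). The other one was above the level of 4 in the 3 control mice only and so was tested only through the diet in which it is high, which makes it no support. The Kcnj9 call was lost in each of the 6 fits that left out 1 mouse, with adjusted p from 0.0587 without ZnR mouse 7 to 0.135 without control mouse 5. It was also lost without both low-18S arrays (-0.52, adjusted p = 0.168). Kcnj3, which encodes the partner subunit GIRK1, measured -0.78 ± 0.17 (SE, limma adjusted p = 0.071), and its other probe sets measured -0.56 (adjusted p = 0.0677) and -0.67 (0.0791). With the low-18S arrays as a block Kcnj3 passed (adjusted p = 0.0293). Adcy1, a calcium-stimulated adenylyl cyclase gene, measured -0.43 ± 0.10 (SE, adjusted p = 0.083).

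In the Gq arm downstream of mGlu5, 0 of 8 measured genes passed in either direction, with a median difference of -0.10. Dagla, which encodes the lipase that makes the endocannabinoid 2-AG after mGlu5 activation, measured -0.32 ± 0.12 (SE, limma adjusted p = 0.213) and did not overlap between diets. The protein kinase C gene Prkca measured -0.17 (adjusted p = 0.565) and the G protein gene Gna11 -0.11 (0.579). Their other tested probe sets measured -0.37 (limma adjusted p = 0.0931) and -0.24 (0.299) for Prkca and -0.034 (0.908) for Gna11.

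Among genes of proteins that bind the receptors, 0 of 10 passed by their representing probe set, with a median of 0.09. Grasp, which encodes the scaffold tamalin that binds group I receptors, measured -0.59 ± 0.14 (SE, limma adjusted p = 0.0965, and 0.0474 when the low-18S arrays formed a block). One of its other probe sets fell (-0.73 ± 0.12 SE, limma adjusted p = 0.0423) and another measured -0.18 (adjusted p = 0.654), so the reading of Grasp depended on the probe set. Homer1, whose long forms tie mGlu5 to the postsynaptic density and whose short form is made after activity, measured -0.45 ± 0.14 (SE, adjusted p = 0.155). Its difference was -0.060 between mice 3 and 1 and -0.65 among mice 5, 7, 9 and 11. Its 5 other probe sets were all lower on average, from -0.056 to -0.68, and none passed. Shank3, a postsynaptic scaffold gene, measured 0.34 ± 0.09 (SE, adjusted p = 0.111).

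Among genes for NAAG and for glutamate transport, 0 of 7 passed, with a median of 0.078. Folh1, which encodes the peptidase that breaks down the mGlu3 agonist NAAG, read 5.82, 5.82 and 6.09 in control mice 1, 5 and 9, and 6.36, 6.25 and 6.34 in ZnR mice 3, 7 and 11. The diets did not overlap, and the difference was 0.41 ± 0.10 (SE, limma adjusted p = 0.102). The NAAG synthetase gene Rimkla measured 0.36 ± 0.15 (SE, adjusted p = 0.266), and the cystine-glutamate exchanger gene Slc7a11 -0.12 (adjusted p = 0.548), with the sign turned in its other probe set (0.077).

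**Figure D3:**
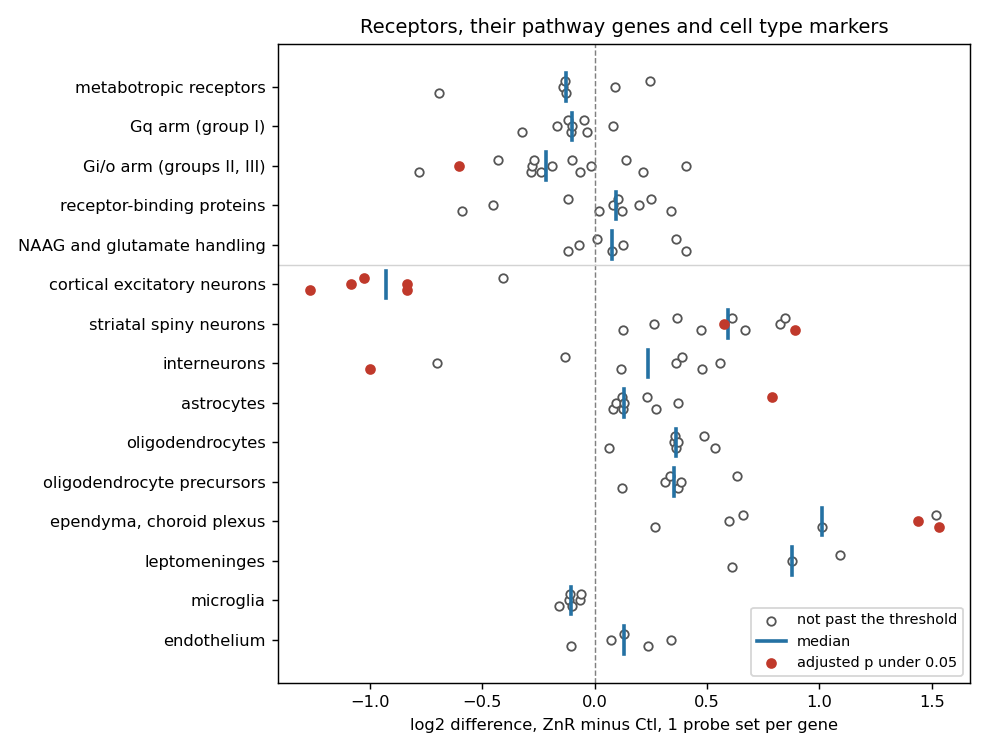
Log2 difference, ZnR minus control, for 1 probe set per gene in the receptor family, in 4 lists of pathway genes and, under the grey line, in 10 lists of cell type markers; filled points passed an adjusted p of 0.05, and blue bars are medians. Kcnj9 is the only filled point among the receptors and their pathway genes, while cortical excitatory markers lie to the left (median -0.93) and striatal (0.59) and ependymal markers (1.01) to the right, as do leptomeningeal (0.88), oligodendrocyte (0.36) and precursor markers (0.35).

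Markers of cell types differed between the diets on the same arrays. In bulk tissue, fewer cells of a type, less RNA per cell and a difference in the piece of tissue dissected cannot be told apart. Which of them applies was not tested. Marker calls are those of the standard fit and were not followed through the alternatives. Of 6 measured markers of cortical glutamatergic neurons, cells known to carry mGlu2 on their terminals, 5 fell and 1 did not pass. Those that fell were Slc17a7 (limma adjusted p = 0.0182), Neurod2 (0.0431), Neurod6 (0.0277), Tbr1 (0.0497) and Nrn1 (0.00624). The summed linear level of the 6 was 6593 to 7088 in control mice and 2952 to 3609 in ZnR mice. Of 10 measured striatal markers, Drd2 (limma adjusted p = 0.0461) and Gpr6 (0.0275) rose and 8 did not pass. The summed level of the 10 was 20333 to 25653 in control mice and 28988 to 32989 in ZnR mice. Among 7 measured markers of ependyma and choroid plexus the risers were Tmem212 (limma adjusted p = 0.0374) and Clic6 (0.0433). The other 5 missed the threshold, and summed levels were 140 to 278 and 490 to 580. Clic6 differed by 2.21 between mice 3 and 1 and by 1.19 among mice 5, 7, 9 and 11. For Tmem212 these differences were 1.87 and 1.22. One of the 7, Ccdc153, was above the level of 4 in ZnR mice only. It was thus tested only through the diet in which it is high, which makes it no support. Its values are part of the list's median, sums and means.

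Of 9 astrocyte markers, relevant to Grm3, Gfap rose (limma adjusted p = 0.0214) and 8 did not pass. Their summed levels were 19300 to 22375 in control mice and 22403 to 23964 in ZnR mice. In the interneuron list Vip fell and 7 of 8 did not pass, with 5 higher and 3 lower on average and a median of 0.24. The 3 lower were Vip, Pvalb and Sst, and the 5 higher were Gad1, Gad2, Slc32a1, Lhx6 and Dlx1. The positive median therefore does not give the direction of Vip, Pvalb and Sst. In the oligodendrocyte, oligodendrocyte precursor, leptomeningeal, microglial and endothelial lists 0 genes passed of 7, 6, 3, 6 and 5 measured. All measured members were higher on average in the oligodendrocyte, precursor and leptomeningeal lists, with medians of 0.36, 0.35 and 0.88. Summed levels overlapped between control and ZnR mice for oligodendrocytes (30889 to 31807 and 30932 to 40504) and leptomeninges (340 to 603 and 561 to 1140). They did not for precursors (3185 to 3357 and 3676 to 4655). After each oligodendrocyte marker's mean was subtracted, the list averaged -0.19 in ZnR mouse 7 and 0.54 in ZnR mouse 11. Control mice 1, 5 and 9 averaged -0.13, -0.18 and -0.24. All measured members were lower in the microglial list (-0.11). In the endothelial list 4 were higher and 1 lower (0.13). Over all genes measured, 57.6% were higher on average in ZnR mice. No measured marker was listed at 0, since the lowest of all deposited values was 0.99. Some markers lay around the level of 4, among them Emx1 (3.99 to 4.52), Ttr (3.15 to 5.36), Ccdc153 (3.06 to 4.23) and Tmem212 (3.60 to 5.78). The part of these cell types in the receptor values was not tested.

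On each array the mean of the 6 cortical glutamatergic markers was subtracted from the Grm2 value, a step chosen after the values were seen. The marker mean differed by -0.91 ± 0.08 log2 units between diets (SE, n = 3 per diet), the same direction as Grm2 itself. In this paragraph SE come from the mice of each diet without limma. The Grm2 value relative to these markers differed by 0.22 ± 0.24 (SE). That value is the Grm2 difference minus the marker difference. Subtracting any other list that fell by a similar amount would give a similar value. The marker mean includes Emx1 (3.99 to 4.52), and low values are compressed. The relative value is given as a description, since 3 mice against 3 cannot reach an exact 2-sided p under 0.1. Whether the cell types in the tissue account for the Grm2 difference was not tested.

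**Figure D4:**
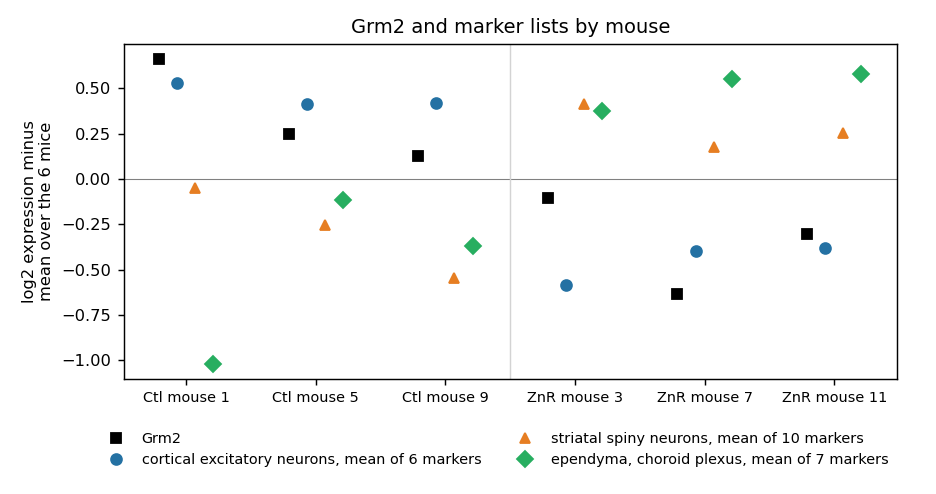
Log2 expression of Grm2 and the mean of 3 marker lists in each of the 6 mice, each minus its mean over all mice. Grm2 and the cortical excitatory markers lie above 0 in all 3 control mice and below 0 in all 3 ZnR mice, while striatal and ependymal markers lie on the opposite sides.

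The genes with the most similar profile were found by the root mean square difference over the 6 mice after each gene's mean was subtracted. For Grm2 these were Adgra1 (0.060 log2 units), Zdhhc22 (0.088) and Ephb6 (0.091), against a root mean square of 0.41 for Grm2 about its own mean. As many as 4023 of 11749 genes lay closer to Grm2 than that. The nearest to Grm4 were Echdc2 (0.020), H2ac19 (0.040, a histone gene with near-identical copies) and Klhl17 (0.043), with 3927 genes closer than the root mean square of 0.20 of Grm4 itself. The nearest to Grm8 were Spring1 (0.043), Snap29 (0.047) and Rab10os (0.048), with 2663 genes closer than the 0.18 of Grm8 itself.

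Grm3, Grm5 and Grm7 varied little over the 6 mice, by a root mean square of 0.088, 0.100 and 0.089, and 1160 to 1633 genes lay closer to each than that. Their nearest genes were Fam171b, Syt1 and Etf1 for Grm3, Ywhaq, Gad1 and Tvp23b for Grm5, and Atp6v1c1, Rwdd4a and Spry3 for Grm7, all within 0.012 to 0.026 log2 units.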

How the data were processed

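Per the labels' protocols, 500 ng of total RNA per mouse was labelled with the Affymetrix 3′ IVT Express kit. The deposited values are log2 expression per probe set, from 0.99 to 14.7, 1 column per mouse. The submitters' processing notes list R 2.15.1 and GCRMA 2.28.0, a method that models background from each probe's bases, makes array distributions alike and then gives 1 value per probe set. A change of total RNA cannot be seen after such normalization, and low values are compressed.

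Of 45101 probe sets, 64 array controls were left out and 25381 (56.4%) with a log2 value above 4 on at least 3 arrays were tested. Names came from the platform annotation (34945 probe sets with 1 symbol, 932 with several, 9160 with none). The diet difference was fitted with lmFit and eBayes of limma 3.58.1 in R 4.3.3. Tests were 2-sided, and p-values were adjusted by Benjamini-Hochberg over every probe set tested (threshold 0.05). A gene was represented by its tested probe set with the highest mean. The code of the fit was tested on simulated data with independent noise and known changes. That simulation held no low-18S effect and gives no assurance about the calls reported here. Robust variances used statmod 1.5.0; tables and plots used Python 3.11.15, pandas 2.3.3 and matplotlib 3.10.9.

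Named were every member probe set, the 3 genes of each pathway list with the smallest p and any past the threshold, markers past the threshold, and the 3 nearest profiles per member. Emx1, Ttr and Ccdc153 were named only for their levels. Adcy5, Gnai2 and the interneuron markers other than Vip were named only for their direction. Some listed genes are not reported here. Members and lists were chosen with earlier results of these data known. Alternatives covered the level filter, normalization, variance prior, array weights, the unit adjusted over, the low-18S arrays (mice 1 and 3) and each mouse left out. No protein or probe sequences were used here.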

Additional observations from a re-analysis of the deposited data

How the results depend on the processing

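The count of 0 receptor probe sets past the threshold held in the 14 other alternatives and became 1, Grm2, with array weights (-0.60, limma adjusted p = 0.0369) and when the low-18S arrays formed a block (adjusted p = 0.0361). The count of 1 pathway gene became 6 with a variance prior with trend (4 lower, 2 higher), 10 with array weights (7 lower, 3 higher) and 3 with the block (Kcnj9, Kcnj3 and Grasp, all lower). It was 0 to 0 over the fits without 1 mouse and 0 without both low-18S arrays, which have fewer samples. Over all probe sets, array weights called 7.89% and the block 2.17%, beside 1.47% in the standard fit. The share with the trended prior is not given here. The cause of the higher counts was not tested. Leaving out 1 mouse moved Grm8 to between -0.25 (control mouse 9 out) and 0.014 (control mouse 1 out), and it was 0.021 without both low-18S arrays. No other receptor probe set changed direction in any alternative. No paired analysis was made, because the mice of the diets share no replicate number. With 3 arrays per diet, standard errors of the receptors ran from 0.086 to 0.18 log2 units.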
